A study of Mus musculus with 8 samples.

Results

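The genes described here are 8 imprinted genes that govern growth of the embryo and placenta: Igf2, H19, Igf2r, Cdkn1c, Plagl1, Grb10, Phlda2 and Sfmbt2. They were chosen by name, with earlier results of these data known. Every probe set that the platform annotation ties to one of these symbols was taken. This gave 13 of the 22626 probe sets tested on the Mouse430A_2 array, on which 12393 genes had a probe set annotated to them alone. Messenger RNA was measured in mouse embryonic stem cells of 4 groups with 2 arrays each: Ezh2-/-, Eed-/-, Jarid2-/- and wild type. All 4 groups carry the strain label cj7, after CJ7, a line used for gene targeting, and all were grown in 15% fetal calf serum with leukemia inhibitory factor at 1000 U/ml, which keeps stem cells undifferentiated. EZH2, EED and JARID2 belong to Polycomb repressive complex 2 (PRC2), which methylates histone H3: EZH2 is a catalytic subunit, EED a core subunit and JARID2 an accessory subunit. The labels name neither the alleles nor the number of clones, nor do they say if a group's arrays come from different cultures. A p-value therefore reflects the spread among the arrays alone, and an effect of genotype cannot be told apart from one of the cell line.

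An imprinted gene is expressed mainly from the copy inherited from one parent, and the choice is held by DNA methylation and, at some loci, by histone marks. Igf2, Plagl1 and Sfmbt2 are expressed from the paternal copy. H19, Igf2r, Cdkn1c, Phlda2 and, in most tissues, Grb10 are expressed from the maternal copy. Insulin-like growth factor 2 drives fetal and placental growth, whereas Igf2r, Grb10, Cdkn1c and Phlda2 restrain it. The comparison asks how the RNA level of these genes differs between cells without a PRC2 component and wild type cells.

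The genes lie on 5 chromosomes of the assembly GRCm38.p6. Igf2 (142650768 to 142666816) and H19 (142575530 to 142578146) are neighbours on chromosome 7 and share enhancers and a methylated control region. Cdkn1c (143458339 to 143461059) and Phlda2 (143501545 to 143503145) lie in another imprinted domain of chromosome 7. Igf2r spans chromosome 17 from 12682406 to 12769706, Plagl1 chromosome 10 from 13090832 to 13131694, Grb10 chromosome 11 from 11930499 to 12037428, and Sfmbt2 chromosome 2 from 10370440 to 10595253. The single H19 probe set is also annotated to Mir675, a microRNA gene inside the H19 transcript, so it reads the host transcript and says nothing of the mature microRNA. The mature arms, from RefSeq on the minus strand of GRCm38.p6, are shown because they are made from the RNA whose level differed most; capitals mark the seed, bases 2 to 8, and the seeds differ.
mmu-miR-675-5p, chr7:142577112-142577133: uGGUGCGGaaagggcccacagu
mmu-miR-675-3p, chr7:142577078-142577099: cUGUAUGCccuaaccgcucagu

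Start-site windows of 300 bases (250 before the start and 50 after it) were matched in RefSeq for 6 of the 8 genes, 11 windows in all, with none matched for H19 and Cdkn1c. The windows below are those of a pair of genes whose signals moved alike and of a gene called in no comparison, and capitals mark the dinucleotide CG, the site of DNA methylation, which reads the same on both strands. The Igf2 window is the one richest in CG among the 4 of that gene.
Igf2, chr7:142658755-142659054, minus strand: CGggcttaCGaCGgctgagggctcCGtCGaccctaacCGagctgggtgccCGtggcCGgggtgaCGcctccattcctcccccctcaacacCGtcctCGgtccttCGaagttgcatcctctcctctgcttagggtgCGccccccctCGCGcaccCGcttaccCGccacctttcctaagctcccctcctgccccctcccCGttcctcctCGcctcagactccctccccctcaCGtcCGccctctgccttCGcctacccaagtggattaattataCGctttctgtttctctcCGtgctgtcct
Plagl1, chr10:13090582-13090881, plus strand: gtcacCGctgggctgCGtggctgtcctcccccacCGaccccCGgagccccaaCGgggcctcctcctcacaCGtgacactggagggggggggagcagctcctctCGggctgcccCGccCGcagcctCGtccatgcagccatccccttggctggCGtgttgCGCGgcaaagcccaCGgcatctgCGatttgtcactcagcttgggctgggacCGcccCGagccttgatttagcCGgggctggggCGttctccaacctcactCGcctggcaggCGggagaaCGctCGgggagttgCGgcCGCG
Phlda2, chr7:143502475-143502774, minus strand: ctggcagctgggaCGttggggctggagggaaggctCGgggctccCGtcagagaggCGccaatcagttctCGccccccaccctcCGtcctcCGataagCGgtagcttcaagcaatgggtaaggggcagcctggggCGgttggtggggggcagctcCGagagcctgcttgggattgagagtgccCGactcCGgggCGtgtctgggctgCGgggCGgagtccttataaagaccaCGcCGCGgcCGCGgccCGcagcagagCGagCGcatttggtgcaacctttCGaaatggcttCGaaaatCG
The Igf2 window held 24 CG, a number reached by 20.0% of the 32851 windows in the table, and the Plagl1 and Phlda2 windows held 26 each, reached by 16.9%. The other 3 Igf2 windows held 2, 7 and 14, against a median of 7 over all windows. The richest window of Grb10 held 45 CG, reached by 1.93% of all windows, that of Igf2r held 34, reached by 7.73%, and those of Sfmbt2 held 9 and 16. Plagl1, called against wild type in all 3 mutants, and Phlda2, called in none, had the same number of CG. The counts are a description of sequence, and DNA methylation was not measured on these arrays.

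Array medians lay between 322.9 and 351.5 signal units, and the 3 probe sets of TrpnX, a bacterial transcript used as a negative control, read 23.76 to 147.91. Ezh2 signal was 650.1 and 743 on the Ezh2-/- arrays, against 4599 and 4997 on the wild type arrays. On the arrays labelled Jarid2-/- Ezh2 read 2926 and 3121, also called lower than in wild type (log2 -0.66, adjusted p = 0.0015). It was not called in Eed-/- (log2 0.06, adjusted p = 0.66). Signal of the bright Eed probe set was 3583 and 3638 on the Eed-/- arrays, against 10875 and 9665 on the wild type arrays. None of the 3 Jarid2 probe sets was lower on the arrays labelled Jarid2-/-; the brightest read 10219 and 8712 there, against 7977 and 7931 in wild type. Which part of Jarid2 is deleted is not stated in the labels, so its probe sets are no test of that label. All 8 stem cell markers, Pou5f1, Nanog and Sox2 among them, were above the negative controls in every group, with 1 called higher in Eed-/-, 3 higher and 1 lower in Ezh2-/-, and 2 higher and 1 lower on the arrays labelled Jarid2-/-. The lower one was Zfp42, also called Rex1, at 3850 in Ezh2-/- (log2 -2.25, adjusted p = 2.4e-07) and 3500 on the arrays labelled Jarid2-/- (log2 -2.39, adjusted p = 4.8e-07), against 18400 in wild type; it averaged 18000 in Eed-/- (log2 -0.03, adjusted p = 0.77). Klf4 was higher in Ezh2-/-, Eed-/- and on the arrays labelled Jarid2-/- (log2 0.50, 0.94 and 0.87). Among all probe sets 9.41% were called higher and 17.2% lower in Ezh2-/-, 7.7% and 10.9% in Eed-/-, and 6.08% and 13.7% for Jarid2-/-. Signals below are deposited intensities of single arrays in the order replicate 1, replicate 2; differences are log2 values, with 16 added to each signal, and carry the standard error (SE) from the fit, and a change was called at a limma adjusted p under 0.05 over all 22626 probe sets. Levels of different probe sets are not comparable on an array, so each gene is compared only with itself.

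In Eed-/- cells most of the imprinted growth genes were higher than in wild type, whereas in Ezh2-/- cells and on the arrays labelled Jarid2-/- some were higher and others lower. Of the 13 probe sets, 10 were higher in Eed-/- than in wild type, where 7.7% of all probe sets were higher, and limma called 0 lower (0 at an unadjusted p under 0.05), where 10.9% of all were. In Ezh2-/- 2 were higher, where 9.41% of all probe sets were, and 4 lower, where 17.2% of all were. On the arrays labelled Jarid2-/- 3 were higher, where 6.08% of all were, and 4 lower, where 13.7% of all were. The genes were chosen with earlier results of these data known, so these counts are a description and not a test of the set. Counted by the brightest probe set of each gene, the median difference over the 8 genes was 1.59 in Eed-/-, -0.42 in Ezh2-/- and -0.36 on the arrays labelled Jarid2-/-, against -0.06, -0.07 and -0.07 over all probe sets in the same order. The 3 mutants share the same 2 wild type arrays, so their differences from wild type are not independent of each other. The 2 arrays of a mutant lay wholly above or below those of wild type at 8 of the 13 in Ezh2-/-, 12 in Eed-/- and 10 for Jarid2-/-, where 66.5%, 60.6% and 57.8% of all probe sets did. A member of the 10 in Eed-/-, the dim Plagl1 probe set, read within the negative controls in both groups. The count of 10 became 6 without Eed-/- replicate 2, a setting under which the count over all probe sets fell to 1801 from 4213.

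**Figure D1:**
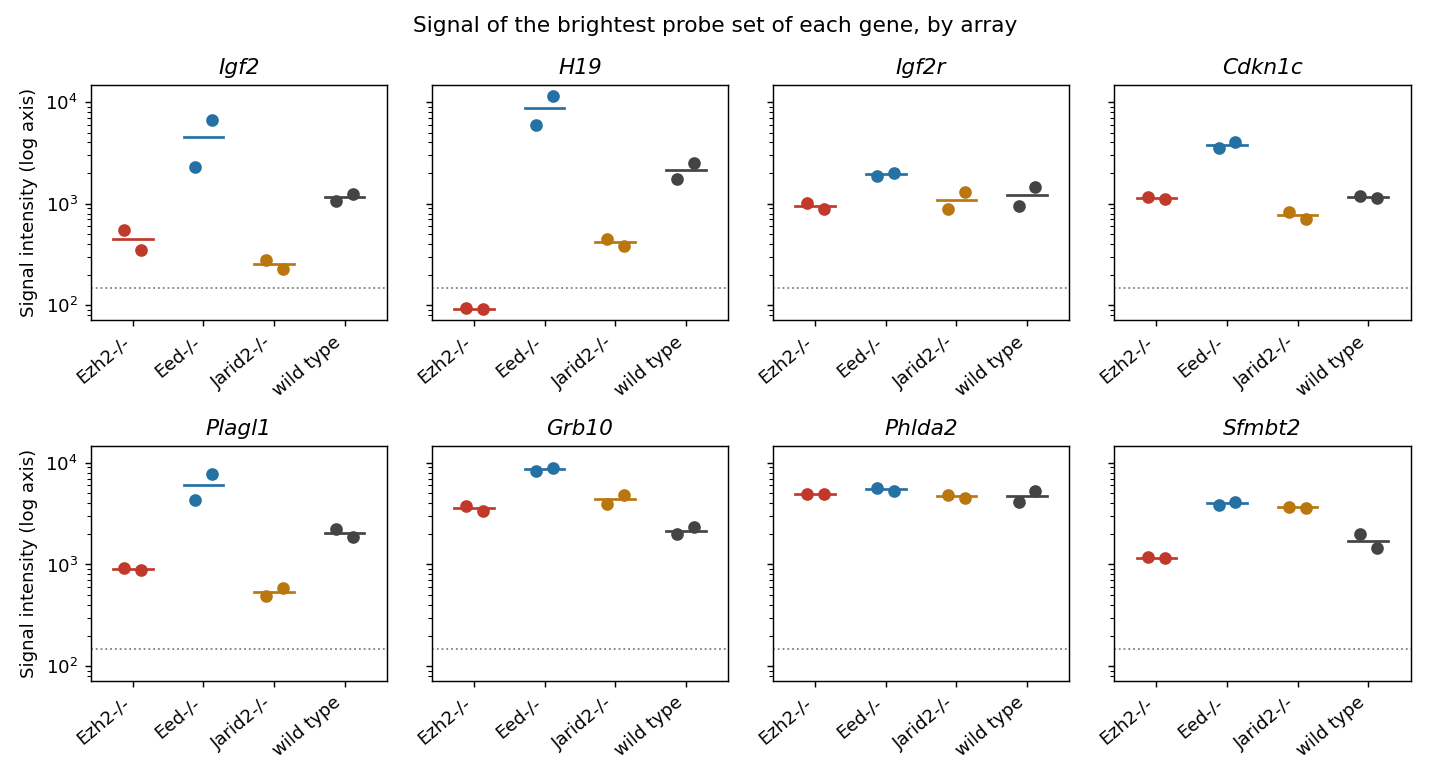
Signal intensity (log axis) of the brightest probe set of each gene on each of the 8 arrays, with 1 point per array, a bar at the mean of the 2 arrays of a group and a dotted line at the highest negative control (147.91). H19 is under that line on both Ezh2-/- arrays, and the Eed-/- arrays are the highest pair for Igf2, H19, Igf2r, Cdkn1c, Plagl1, Grb10 and Sfmbt2.

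By parental copy, limma placed all 3 paternally expressed genes higher in Eed-/- and all 3 lower in Ezh2-/-. The Ezh2-/- calls of Igf2 and Sfmbt2, and the Eed-/- call of Igf2, did not hold with every array left out in turn. On the arrays labelled Jarid2-/- 1 of the 3, Sfmbt2, was higher and 2, Igf2 and Plagl1, were lower. Of the 5 maternally expressed genes, 3 were higher in Eed-/- (H19, Cdkn1c and Grb10). The other 2, Igf2r and Phlda2, were not past the threshold at the brightest probe set, though the dimmer Igf2r probe set was called higher there. In Ezh2-/- 1 of the 5 was higher (Grb10), 1 lower (H19) and 3 not past. On the arrays labelled Jarid2-/- 1 was higher (Grb10), 2 were lower (H19 and Cdkn1c) and 2 not past. Of all probe sets, 7.7% were higher and 10.9% lower in Eed-/-, 9.41% and 17.2% in Ezh2-/-, and 6.08% and 13.7% for Jarid2-/-.

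Igf2 encodes the growth factor itself, a secreted ligand of the IGF1 receptor. Its bright probe set read 553 and 354 on the Ezh2-/- arrays, 2319 and 6709 on the Eed-/- arrays, 278 and 227 on the arrays labelled Jarid2-/-, and 1070.4 and 1238 in wild type. The Eed-/- arrays were the highest and no mutant overlapped wild type, but the 2 Eed-/- arrays differed from each other by 2.89-fold. Igf2 rose in Eed-/- (log2 1.76, SE 0.41, adjusted p = 0.018) and fell on the arrays labelled Jarid2-/- (log2 -2.13, SE 0.41, adjusted p = 0.0072), to 21.9% of the wild type mean. The decrease in Ezh2-/- was close to the threshold (log2 -1.35, SE 0.41, adjusted p = 0.038). That call ended without any one of the 4 arrays compared, with adjusted p between 0.065 and 0.22, and without an intensity trend in the model (0.064). The Eed-/- call ended without Eed-/- replicate 2 (log2 1.001, adjusted p = 0.05) and without wild type replicate 1 (log2 1.66, adjusted p = 0.054). In the order of levels, Eed-/- stood above wild type and wild type above the other groups, while Ezh2-/- and the arrays labelled Jarid2-/- did not pass the test between them (log2 -0.78 as Jarid2-/- minus Ezh2-/-, 95% interval -1.70 to 0.14, adjusted p = 0.25). The dim Igf2 probe set read between 162.6 and 252.3 on all 8 arrays, not far above the highest negative control, and passed in no comparison.

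H19 is the non-coding RNA made from the maternal copy of the same locus, where its transcription and that of Igf2 compete for shared enhancers. Its probe set read 94.9 and 91.3 on the Ezh2-/- arrays, 5946 and 11555 on the Eed-/- arrays, 450.3 and 382 on the arrays labelled Jarid2-/-, and 1757 and 2494 in wild type. The 4 groups did not overlap at all. The Ezh2-/- signal was no higher than the negative controls, so its level there has only a bound, at least 14.4-fold lower than wild type (fitted log2 -4.27, adjusted p = 1.6e-05). H19 rose in Eed-/- (log2 1.98, SE 0.27, adjusted p = 0.0022) and fell on the arrays labelled Jarid2-/- (log2 -2.29, SE 0.27, adjusted p = 0.00083). It passed in all 6 comparisons between groups, which gives the order Eed-/-, wild type, Jarid2-/-, Ezh2-/- from high to low. Between Ezh2-/- and Eed-/- the difference was at least 59.2-fold (adjusted p = 2.1e-06). The calls for H19 against wild type held with each array left out and under every processing alternative run. Igf2 and H19, expressed from opposite parental copies, had the same sign of difference from wild type in each mutant.

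Igf2r encodes the receptor that takes up IGF2 for breakdown in lysosomes. Its 2 probe sets gave similar values, and the brighter read 1023 and 883 on the Ezh2-/- arrays, 1869 and 2011 on the Eed-/- arrays, 894 and 1298 on the arrays labelled Jarid2-/-, and 953 and 1470.1 in wild type. The Eed-/- arrays were above all others, while the remaining groups overlapped. In Eed-/- the dimmer probe set rose (log2 0.86, SE 0.18, adjusted p = 0.012) and the brighter just missed the threshold (log2 0.70, SE 0.22, adjusted p = 0.052). The first call ended without Eed-/- replicate 2 (adjusted p = 0.086). The brighter probe set passed without wild type replicate 2 (log2 1.012, adjusted p = 0.016), with equal array medians (0.041) and in a model blocked by replicate number (0.022). Against Eed-/- the brighter probe set was lower in Ezh2-/- (log2 -1.02, adjusted p = 0.013) and on the arrays labelled Jarid2-/- (log2 -0.84, adjusted p = 0.032). The first of these calls ended without either Ezh2-/- array or Eed-/- replicate 2 (0.054 to 0.11), and the second without either Eed-/- array or Jarid2-/- replicate 1 (0.094 to 0.17) and without an intensity trend (0.058). Igf2r did not pass in Ezh2-/- (log2 -0.31, 95% interval -0.80 to 0.18, adjusted p = 0.32) or on the arrays labelled Jarid2-/- (log2 -0.13, 95% interval -0.62 to 0.35, adjusted p = 0.7). Without wild type replicate 1 the Ezh2-/- value passed (log2 -0.621, adjusted p = 0.049).

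Grb10 encodes an adaptor that binds insulin and IGF1 receptors and damps their signal. Its brightest probe set read 3780.2 and 3368 on the Ezh2-/- arrays, 8249 and 8949 on the Eed-/- arrays, 3890 and 4833 on the arrays labelled Jarid2-/-, and 1991 and 2313 in wild type. All 6 mutant arrays were above both wild type arrays. Grb10 was the only one of the 8 genes called in the same direction in all 3 mutants, with log2 0.73 in Ezh2-/- (SE 0.12, adjusted p = 0.0024), 1.99 in Eed-/- (adjusted p = 2.9e-05) and 1.01 on the arrays labelled Jarid2-/- (adjusted p = 0.00073). The second probe set gave the same order, with 203 and 182 in Ezh2-/-, 470.02 and 517 in Eed-/-, 193 and 198 on the arrays labelled Jarid2-/-, and 87.3 and 104 in wild type. Because the wild type signal of that probe set lay within the negative controls, its increase in Eed-/- is at least 3.34-fold (adjusted p = 1.2e-05). The third, at 109 to 182 on the 8 arrays, passed in Eed-/- (adjusted p = 0.015, and 0.096 without Eed-/- replicate 2). At the brightest probe set Ezh2-/- was lower than Eed-/- (log2 -1.26, adjusted p = 0.00018) and the arrays labelled Jarid2-/- were lower than Eed-/- too (log2 -0.98, adjusted p = 0.0008). The 2 lower mutants were not separated by the test (log2 0.28, 95% interval 0.01 to 0.55, adjusted p = 0.15).

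Cdkn1c encodes p57, an inhibitor of cyclin-dependent kinases that stops the cell cycle. Its probe set read 1159 and 1117 on the Ezh2-/- arrays, 3535 and 4055 on the Eed-/- arrays, 835 and 709 on the arrays labelled Jarid2-/-, and 1200.5 and 1137 in wild type. Replicates were close, the Eed-/- arrays lay above and the arrays labelled Jarid2-/- below all others, and the Ezh2-/- and wild type arrays overlapped. Cdkn1c rose in Eed-/- (log2 1.68, SE 0.11, adjusted p = 5e-05) and fell on the arrays labelled Jarid2-/- (log2 -0.59, SE 0.11, adjusted p = 0.0067), both with each array left out as well. In Ezh2-/- it did not pass (log2 -0.04, 95% interval -0.29 to 0.21, adjusted p = 0.83). Of the other cell cycle brakes of the Cip/Kip and Ink4 families, 6 of 6 were measured. In Eed-/- limma called 0 of them higher and 0 lower (1 and 1 with p under 0.05 before adjustment), where 7.7% and 10.9% of all probe sets were. Cdkn1a, which encodes p21, averaged 824 in Ezh2-/- and 2150 in wild type (log2 -1.37, adjusted p = 0.0049). On the arrays labelled Jarid2-/- it averaged 1240, also lower than in wild type (log2 -0.84, adjusted p = 0.048). Cdkn2b was called lower on those arrays as well, at 149 against 332 in wild type (log2 -1.08, adjusted p = 0.011).

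Plagl1, also called Zac1, encodes a zinc-finger transcription factor known in mouse to bind and regulate other imprinted genes, the Igf2 and H19 locus among them. Its bright probe set read 922.5 and 873 on the Ezh2-/- arrays, 4311 and 7729 on the Eed-/- arrays, 493 and 585 on the arrays labelled Jarid2-/-, and 2215 and 1879 in wild type. The groups did not overlap, and their order was that of Igf2. Plagl1 fell in Ezh2-/- (log2 -1.17, SE 0.23, adjusted p = 0.0059), rose in Eed-/- (log2 1.49, SE 0.23, adjusted p = 0.0035) and fell on the arrays labelled Jarid2-/- (log2 -1.89, SE 0.23, adjusted p = 0.00085). Each of these calls held with every array left out in turn. The difference between the arrays labelled Jarid2-/- and Ezh2-/- missed the threshold (log2 -0.72, adjusted p = 0.066) and passed in a model blocked by replicate number (0.039). The suffix of this probe set, x_at, marks probes that can also match other transcripts. The other Plagl1 probe set stayed within the negative controls in all groups, at 37.3 to 138.1, so its fold is not given.

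Sfmbt2 encodes a Polycomb-related protein needed in mouse for placental growth. Its probe set read 1171 and 1163 on the Ezh2-/- arrays, 3879 and 4142 on the Eed-/- arrays, 3673 and 3626 on the arrays labelled Jarid2-/-, and 1994 and 1443 in wild type. The Eed-/- arrays and those labelled Jarid2-/- were all above wild type, and the Ezh2-/- arrays were below it. It rose in Eed-/- (log2 1.23, SE 0.13, adjusted p = 0.00065) and on the arrays labelled Jarid2-/- (log2 1.10, SE 0.13, adjusted p = 0.00086), and those 2 groups were not separated (log2 -0.13, 95% interval -0.44 to 0.17, adjusted p = 0.57). Sfmbt2 and Grb10 were the genes higher on the arrays labelled Jarid2-/- than in wild type. The lower value in Ezh2-/- (log2 -0.53, adjusted p = 0.018) lost its call without Ezh2-/- replicate 1 (0.091) or replicate 2 (0.1).

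Phlda2 encodes a small protein that limits growth of the placenta. It read 4944 and 4969 on the Ezh2-/- arrays, 5689 and 5268 on the Eed-/- arrays, 4800.2 and 4547 on the arrays labelled Jarid2-/-, and 4134 and 5326 in wild type. Each mutant overlapped wild type, whose 2 arrays were the farthest apart. Its difference was 0.08 in Ezh2-/- (95% interval -0.16 to 0.32), 0.22 in Eed-/- (-0.02 to 0.46) and -0.01 on the arrays labelled Jarid2-/- (-0.25 to 0.24), with adjusted p of 0.63, 0.18 and 0.98. It was the only one of the 8 genes called in none of the 6 comparisons. Without wild type replicate 2 the Eed-/- value passed (log2 0.404, adjusted p = 0.016). Cdkn1c, in the same imprinted domain, had 325% of its wild type mean in Eed-/-, where Phlda2 had 116%.

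**Figure D2:**
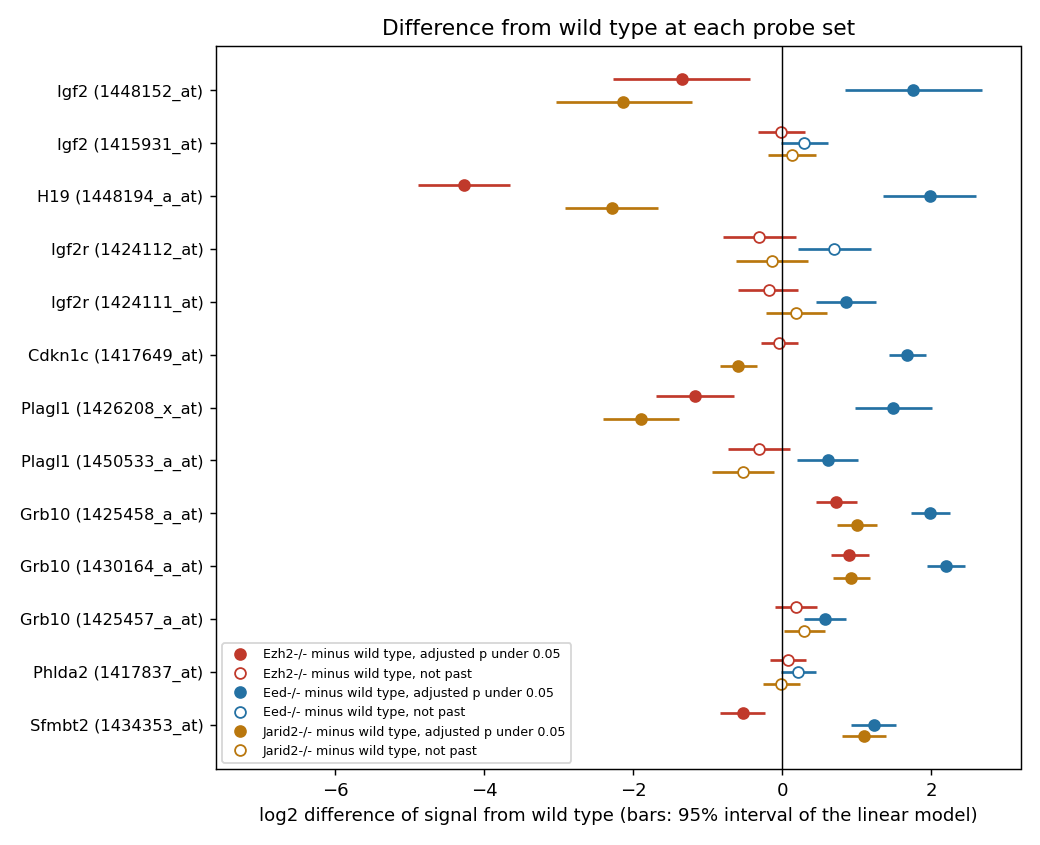
Difference from wild type (log2, horizontal axis) at each of the 13 probe sets, with the 95% interval of the linear model; filled circles passed an adjusted p of 0.05. For Igf2, H19 and Plagl1 the bright probe set lies to the right of 0 in Eed-/- and to the left in Ezh2-/- and on the arrays labelled Jarid2-/-, while the upper 2 Grb10 probe sets lie to the right in all 3.

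Set directly against Eed-/-, both other mutants were lower. Of the 13 probe sets, 10 were lower in Ezh2-/- than in Eed-/-, where 11.1% of all probe sets were lower, and limma called 0 higher (0 at an unadjusted p under 0.05), where 5.68% of all were. On the arrays labelled Jarid2-/- 9 were lower than in Eed-/-, where 9.9% of all were, and limma called 0 higher (0 at an unadjusted p under 0.05), where 4.99% of all were. Igf2 was 9.96-fold lower in Ezh2-/- than in Eed-/- (453 against 4510 on average, adjusted p = 0.0011), and 17.9-fold lower on the arrays labelled Jarid2-/- than in Eed-/- (252 against 4510, adjusted p = 0.00038). Without Eed-/- replicate 1 these Igf2 differences were log2 -3.874 and -4.653, and without Eed-/- replicate 2 they were -2.348 and -3.127, in place of -3.11 and -3.89. Plagl1 was 6.7-fold lower in Ezh2-/- and 11.2-fold lower on the arrays labelled Jarid2-/- (adjusted p = 0.00012 and 4.6e-05). Between the arrays labelled Jarid2-/- and Ezh2-/-, 2 probe sets were higher, where 7.77% of all were, and 1 was lower, where 7.28% of all were. The higher ones were H19, at least 2.81-fold (adjusted p = 0.0017), and Sfmbt2 (log2 1.63, adjusted p = 0.00013), and the lower one was Cdkn1c (log2 -0.56, adjusted p = 0.011), whose call ended without either Ezh2-/- array (0.1 and 0.078) or without Jarid2-/- replicate 2 (0.076).

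Igf2, H19 and Plagl1 also differed most between the 2 Eed-/- arrays, all in the same direction. Replicate 2 exceeded replicate 1 by log2 1.53 for Igf2, 0.96 for H19 and 0.84 for Plagl1, where the median gap over all probe sets was 0.11 in size. A gap at least as large was found in 6 of 22626 probe sets for Igf2, its own included, in 73 for H19 and in 121 for Plagl1. By contrast the gap was 0.20 for Cdkn1c, 0.12 for Grb10 and 0.09 for Sfmbt2, which were as high or nearly as high on both Eed-/- arrays. The named genes with a larger gap than Igf2, picked after their values were seen, were Pmp22 (1.93), Septin4 (1.92), the keratin gene Krt7 (1.63) and Serpinb6b (1.61). In Ezh2-/- the Igf2 gap ran the other way (-0.62). Over all other genes and groups the gap at the brightest probe set was at most 0.62 in size.

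**Figure D3:**
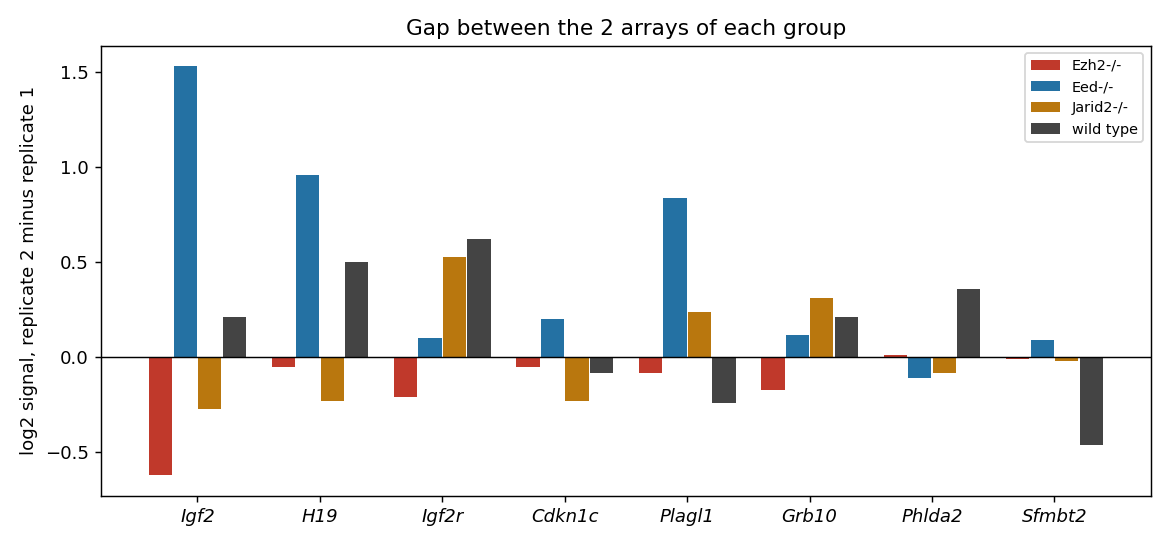
Gap between the 2 arrays of each group (log2 signal, replicate 2 minus replicate 1) at the brightest probe set of each gene, with 1 bar per group. The Eed-/- bars of Igf2 (1.53), H19 (0.96) and Plagl1 (0.84) are the tallest in the plot.

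Markers of other cell types moved with these genes in part. In bulk RNA, fewer cells of a type and less RNA per cell cannot be told apart. The summed signal of 13 of 14 trophoblast markers was 13234 on Eed-/- replicate 1 and 25207 on Eed-/- replicate 2, against 29695 and 22268 in wild type. That of 20 of 20 fibroblast and feeder markers was 6995 and 11382 on the same Eed-/- arrays, against 14747 and 12170 in wild type. Both sums were higher on the Eed-/- array with more Igf2, H19 and Plagl1. In wild type both sums were higher on replicate 1, which had less Igf2 and H19 and more Plagl1 than replicate 2. A few bright genes carry the sums. In the fibroblast sum Tagln averaged 4330 in Eed-/- and 4960 in wild type, and Acta2 1470 and 3420. The trophoblast sum rests mostly on the keratin genes Krt8, Krt18 and Krt19 and on Tfap2c. These averaged 6550, 5020, 970 and 4060 in Eed-/-, against 10000, 6540, 3420 and 3840 in wild type. In Ezh2-/- the trophoblast sum was 5987 and 4898 and the fibroblast sum 3055 and 2795, and on the arrays labelled Jarid2-/- they were 7498 and 9112, and 3460 and 3676. By gene, 2 trophoblast markers were higher and 1 lower in Eed-/-, 5 were lower in Ezh2-/- and 3 lower on the arrays labelled Jarid2-/-. Of the fibroblast markers 1 was higher and 4 lower in Eed-/-, 12 were lower in Ezh2-/- and 9 lower on the arrays labelled Jarid2-/-. Some of these lower calls compare signals that were within the negative controls in the mutant and in wild type alike. They were Col3a1, Fbln2, Twist2 and Fap in Ezh2-/-, and Col3a1 and Twist2 for Jarid2-/-. Over all probe sets 7.7% were higher and 10.9% lower in Eed-/-, with 17.2% lower in Ezh2-/- and 13.7% lower for Jarid2-/-. Of the 20 fibroblast markers 7 were above the negative controls in Ezh2-/-, 9 in Eed-/-, 6 on the arrays labelled Jarid2-/- and 11 in wild type, and of the 13 trophoblast markers 10, 10, 10 and 11 in the same order. Col3a1, Lum, Dcn, Postn, Elf5 and Tpbpa were within the controls in all 4 groups. The collagen gene Col1a2 averaged 154 in Ezh2-/-, 216 in Eed-/-, 132 on the arrays labelled Jarid2-/- and 1160 in wild type. It was lower in each mutant (adjusted p = 0.00013, 0.00069 and 0.00017), and within the controls on the arrays labelled Jarid2-/-. Col1a1 was lower in each as well, at 24.5, 66.4 and 23.6, all within the negative controls, against 490.0 in wild type. The keratin gene Krt8 averaged 1120 in Ezh2-/-, 6550 in Eed-/-, 1170 on the arrays labelled Jarid2-/- and 10000 in wild type. It was lower in Ezh2-/- and on the arrays labelled Jarid2-/- (adjusted p = 0.0007 and 0.0012), as were Igf2, H19 and Plagl1. Krt19 was lower in Eed-/- too (970 against 3420 in wild type, log2 -1.87, adjusted p = 0.0045), where Igf2, H19 and Plagl1 rose. The 2 trophoblast markers higher in Eed-/- were Krt7 and Eomes. Cdx2, Elf5, Hand1 and Tpbpa were called in no mutant. The part of these cell types in the differences was not tested.

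Extraembryonic endoderm, which arises from primitive endoderm, is a site of H19 and Igf2 expression in the mouse embryo, and markers of primitive endoderm were examined in the same way. Of 17 measured, 9 rose and limma called 0 lower in Eed-/- (1 lower at an unadjusted p under 0.05), with a median of 0.38 against -0.06 over all probe sets. Among them Cubn, an endocytic receptor of visceral endoderm, averaged 412 in Eed-/- and 109, within the negative controls, in wild type (adjusted p = 0.0031). Dab2 averaged 452 in Eed-/- and 200 in wild type (log2 1.12, adjusted p = 0.00037). The collagen gene Col4a1 averaged 2140 in Eed-/- and 1010 in wild type (log2 1.05, adjusted p = 0.0037). Gata4, Gata6, Ttr and Amn were called in no mutant. In Eed-/- Gata4 differed by log2 0.17 (adjusted p = 0.37) and Gata6 by 0.08 (adjusted p = 0.68). The summed signal of the 17 was 23191 and 25404 in Eed-/-, 28183 and 27861 in Ezh2-/-, 19536 and 21464 on the arrays labelled Jarid2-/-, and 20504 and 21737 in wild type. Bright genes carry this sum too: Apoe averaged 13700 in Ezh2-/- and 6530 in wild type, and Lama1 3110 in Ezh2-/- and 600.0 in wild type. Dab2, Col4a1, Col4a2, Foxa2 and Sparc were called lower both in Ezh2-/- and on the arrays labelled Jarid2-/-. Foxa2 read within the negative controls in these 2 mutants and in wild type. Sox7, Lama1 and Apoe were called higher in both (log2 3.42, 2.34 and 1.09 in Ezh2-/-, and 1.01, 1.11 and 0.58 for Jarid2-/-). Sox7, within the negative controls in wild type, was higher in Eed-/- too (log2 2.41, adjusted p = 0.00033). The part of this cell type in the differences was not tested. Afp was within the negative controls in every group, and Pdgfra was so in Ezh2-/- and Eed-/-. In Ezh2-/- 3 of the 17 were higher and 5 lower, and on the arrays labelled Jarid2-/- 4 were higher and 5 lower. Over all probe sets 9.41% were higher and 17.2% lower in Ezh2-/-, 7.7% and 10.9% in Eed-/-, and 6.08% and 13.7% for Jarid2-/-. Of 9 mesoderm markers measured among 10, 2 were higher and 1 lower in Eed-/-, 2 lower in Ezh2-/- and 2 lower on the arrays labelled Jarid2-/-, with Tbx6 and Gsc within the negative controls in all groups.

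Of the measured genes around the imprinted loci, 36 of 49 passed the test in no mutant. Up to 4 measured genes on each side of each gene gave 49 neighbours, 8 of them over 1000 kb away, of which 3 were higher and 6 lower in Ezh2-/-, 4 higher and 2 lower in Eed-/-, and limma called 0 higher (4 at an unadjusted p under 0.05) and 6 lower on the arrays labelled Jarid2-/-. Over all probe sets 26.6% were called in Ezh2-/-, 18.6% in Eed-/- and 19.8% on the arrays labelled Jarid2-/-. The neighbours' median difference was -0.07, -0.08 and -0.09 in that order, against -0.07, -0.06 and -0.07 over all probe sets. Among the 8 neighbours of Igf2, which are also those of H19, differences in Eed-/- lay between -0.27 and 0.09, and Ins2, the insulin gene 11.8 kb from Igf2, averaged 674 in Eed-/- and 781 in wild type (log2 -0.21, adjusted p = 0.32). Around Cdkn1c and Phlda2 the neighbours lay between -0.26 and 0.27 in Eed-/-, and Slc22a18, an imprinted transporter gene 12.7 kb from Cdkn1c, averaged 401 in Eed-/- and 434 in wild type (log2 -0.10, adjusted p = 0.58). Ddc, an imprinted gene 32.4 kb from Grb10 that encodes a decarboxylase, went against Grb10: it averaged 934 in Ezh2-/-, 912 in Eed-/-, 1070 on the arrays labelled Jarid2-/- and 1820 in wild type. It was lower in all 3 mutants (log2 -0.95, -0.99 and -0.77, adjusted p = 0.0012, 0.002 and 0.0047). Airn, the paternally expressed antisense RNA over Igf2r, was within the negative controls on average in every group. It averaged 58.7 in Ezh2-/-, 135 in Eed-/-, 93.1 on the arrays labelled Jarid2-/- and 128 in wild type. Within that range it was called lower in Ezh2-/- (log2 -0.94, adjusted p = 0.0034). Near Plagl1, Utrn, the gene of utrophin, fell in Ezh2-/- (1780 against 5080 in wild type, log2 -1.51, adjusted p = 2.3e-05) and in Eed-/- (3190 against 5080, log2 -0.67, adjusted p = 0.0035), so in Eed-/- it ran opposite to Plagl1.

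**Figure D4:**
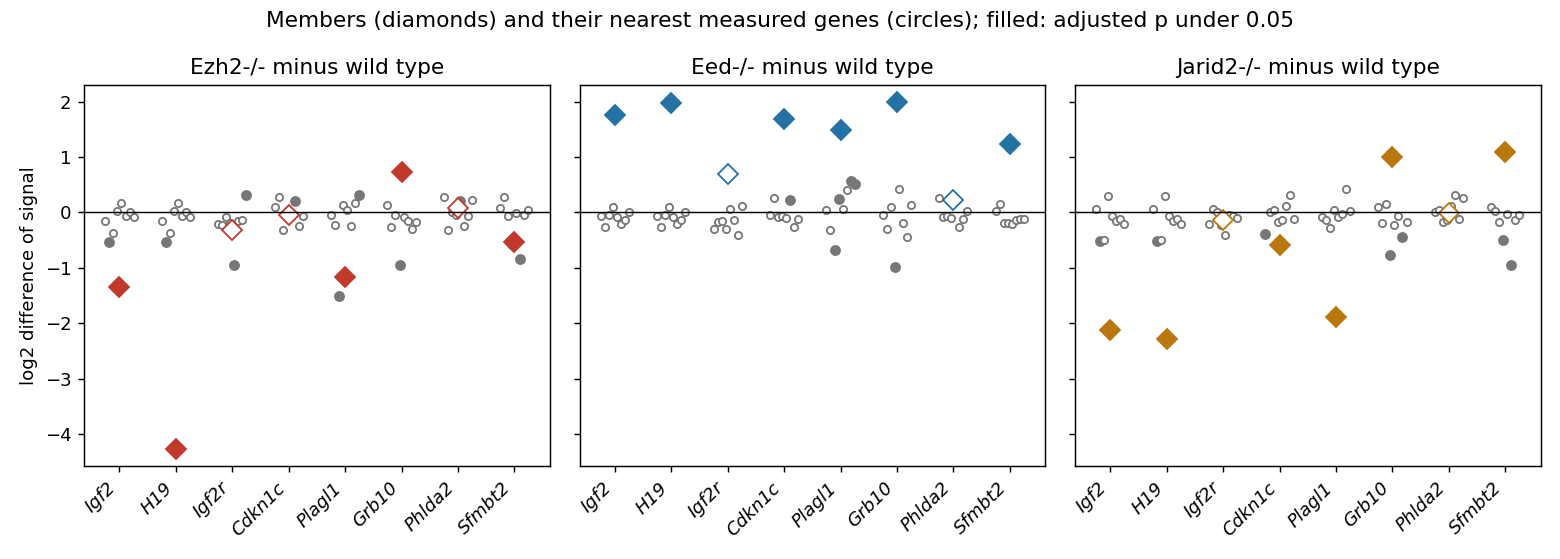
Difference from wild type (log2) of each imprinted growth gene (diamonds, brightest probe set) and of up to 8 measured genes nearest to it (grey circles), in 3 panels for Ezh2-/-, Eed-/- and Jarid2-/-; filled symbols passed an adjusted p of 0.05. In Eed-/- the diamonds of Igf2, H19, Cdkn1c, Plagl1, Grb10 and Sfmbt2 lie above every neighbour, the highest of which is at 0.57.

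Counted in either direction, the pathway that Igf2 feeds was called at a rate near that of all probe sets. Of 24 measured genes of insulin-like growth factor signalling, 2 were higher and 2 lower in Eed-/-, 1 was higher and 6 lower in Ezh2-/-, and limma called 0 higher (1 at an unadjusted p under 0.05) and 6 lower on the arrays labelled Jarid2-/-. Over all probe sets 18.6% were called in either direction in Eed-/-, 26.6% in Ezh2-/- and 19.8% on the arrays labelled Jarid2-/-. By direction, 7.7% of all were higher and 10.9% lower in Eed-/-, 9.41% and 17.2% in Ezh2-/-, and 6.08% and 13.7% for Jarid2-/-. The list medians were -0.01, -0.06 and -0.14 in that order. Igfbp3, which encodes a binding protein that sequesters IGFs, fell in all 3 mutants. It averaged 359 in Ezh2-/- (log2 -3.57, adjusted p = 2.6e-05), 828 in Eed-/- (log2 -2.40, adjusted p = 0.00053) and 546 on the arrays labelled Jarid2-/- (log2 -2.98, adjusted p = 0.00014), against 4680 in wild type. Igfbp2, another binding protein gene, rose in Eed-/- (9140 against 5910 in wild type, log2 0.64, adjusted p = 0.039). Gab1, a docking protein gene of receptor signalling, averaged 812 in Ezh2-/-, 4110 in Eed-/- and 6590 on the arrays labelled Jarid2-/-, against 7880 in wild type, and was lower in each (log2 -3.25, -0.94 and -0.26, adjusted p = 3.4e-08, 0.00013 and 0.038). Irs1, an insulin receptor substrate gene, averaged 86.8 in Ezh2-/-, under the highest negative control, 329 in Eed-/- and 270.0 on the arrays labelled Jarid2-/-, against 572 in wild type (adjusted p = 0.00015, 0.05 and 0.014), and was called lower in the first and the last of these mutants. Irs2 averaged 313 in Ezh2-/-, 857 in Eed-/- and 578 on the arrays labelled Jarid2-/-, against 1380 in wild type (log2 -2.07, -0.68 and -1.25, adjusted p = 0.00041, 0.074 and 0.0068), and was called in the same mutants as Irs1.

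Of 24 measured genes of the imprinted gene network, in which Plagl1 is placed in mouse, 16 did not pass in Ezh2-/-, 19 in Eed-/- and 14 on the arrays labelled Jarid2-/-. By direction, 1 was higher and 7 lower in Ezh2-/-, 1 higher and 4 lower in Eed-/-, and limma called 0 higher (0 at an unadjusted p under 0.05) and 10 lower on the arrays labelled Jarid2-/-. The medians were -0.13, -0.04 and -0.35, against -0.07, -0.06 and -0.07 over all probe sets, of which 17.2%, 10.9% and 13.7% were lower in the same order. Sgce, a sarcoglycan gene, averaged 139 in Ezh2-/-, 225 in Eed-/- and 168 on the arrays labelled Jarid2-/-, against 520 in wild type, and was lower in each (adjusted p = 8.6e-05, 0.0017 and 0.00032). Meg3 averaged 117 in Ezh2-/-, 1340 in Eed-/- and 810.0 on the arrays labelled Jarid2-/-, against 7810 in wild type, lower in each mutant (adjusted p = 4.3e-08, 2.4e-05 and 5e-06). Rian was lower in each too, at 48.6, 192 and 158 in the same order against 1060 in wild type. The Ezh2-/- averages of Sgce, Meg3 and Rian were under the highest negative control. In Eed-/- the maternally expressed RNAs Meg3 and Rian fell while H19, Cdkn1c and Grb10 rose. Of 12 measured factors that establish or guard imprints, 5 were higher and 1 lower in Ezh2-/-, 4 higher in Eed-/- and 3 higher on the arrays labelled Jarid2-/-. The shares higher over all probe sets were 9.41%, 7.7% and 6.08% in that order. Zfp57, a zinc-finger guardian of imprints, averaged 1030 in Ezh2-/- and 557 in wild type (log2 0.87, adjusted p = 0.0043). Dppa3, which protects maternal methylation in the early embryo, rose in Eed-/- (5080 against 1890 in wild type, log2 1.46, adjusted p = 0.0016) and on the arrays labelled Jarid2-/- (3890 against 1890, log2 1.07, adjusted p = 0.0051). Of 11 measured relatives of the imprinted growth genes, such as Plagl2, Grb7, Phlda3 and Igf1, limma called 0 in Eed-/- (2 and 2 with p under 0.05 before adjustment). In Ezh2-/- 2 relatives were lower, Cdkn1a and Grb7 (log2 -0.65, adjusted p = 0.0054), and on the arrays labelled Jarid2-/- 2 were lower, Cdkn1a and Phlda3 (log2 -0.74, adjusted p = 0.0048).

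Likeness to the imprinted growth genes was measured as Pearson's r of log2 signal over the 8 arrays among 628 genes that were bright and spanned at least log2 1 between group means. The arrays form 4 groups, so r mainly reflects the group levels and is given as a description. The gene most like both Igf2 (r = 0.982) and Plagl1 (r = 0.989) was Emp1, an epithelial membrane protein gene, at 690 on average in Ezh2-/-, 3140 in Eed-/-, 399 on the arrays labelled Jarid2-/- and 1210 in wild type. H19 was most like H2ax (r = 0.984), Lpl (r = 0.977) and Cap1 (r = 0.973). Cdkn1c was most like Bmi1, a gene of Polycomb repressive complex 1 (r = 0.979), which averaged 553 in Ezh2-/-, 1650 in Eed-/-, 333 on the arrays labelled Jarid2-/- and 424 in wild type. Igf2r was most like Satb1 (r = 0.992), Grb10 most like Dpysl3 (r = 0.977) and Sfmbt2 most like Gpr137b (r = 0.96). Phlda2 spanned only log2 0.23 between group means and was not compared.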

How the data were processed

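The authors deposited 1 linear signal intensity for each probe set and array. The labels do not say how these deposited intensities were normalized. A second table, which states dChip model-based expression per the file headers, has 12 array columns that match no sample label, and they were not used. Of the deposited probe sets, 64 controls were left out and 22626 were tested. Values were floored at 1, 16 was added and log2 was taken, which understates differences of dim probe sets. limma 3.58.1 in R 4.3.3 was fitted with 1 mean per genotype over all 8 arrays (lmFit, then eBayes with an intensity trend; 4 residual and 5.02 prior degrees of freedom), and p-values are two-sided with Benjamini-Hochberg adjustment over all probe sets of a comparison. The small number of arrays limits precision. By the platform annotation, 20380 probe sets carried 1 symbol, 691 several and 1555 none. Lists and neighbours were counted by the brightest probe set of a gene, whereas the shares beside them cover all 22626 probe sets, dim ones included. Up to 3 called, bright, non-overlapping genes per list were named by size of difference. A group whose arrays both read at or under 147.91, the highest TrpnX value, was given a bound, the mean of the brighter group over that value. For Ezh2-/- against wild type, data of 22626 probe sets were simulated with normally distributed noise. Changes of 1.5-fold, 2-fold and 4-fold were set in 50, 100 and 50 probe sets, all above the median signal. Of these 66%, 85% and 100% were recovered, and 6 of 174 calls fell on probe sets left unchanged. The rates do not cover dim probe sets, and far more probe sets were called in the data (6012). The genes and lists were chosen with earlier results of these data known. Replicate numbers were not used as a block, because the labels do not tie them to a shared culture. Deviations of same-numbered arrays correlated by 0.0075 to 0.411 between groups. The largest values were 0.411 between wild type and Jarid2-/- and 0.244 between Eed-/- and Jarid2-/-. Alternatives were other scalings, pseudocounts, a filter on dim probe sets, no trend, 2 groups alone, the block and each array left out.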

Additional observations from a re-analysis of the deposited data

How the results depend on the processing

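The calls of the bright probe sets of H19, Plagl1, Cdkn1c and Grb10 against wild type, of Sfmbt2 in Eed-/- and on the arrays labelled Jarid2-/-, and of Igf2 on the arrays labelled Jarid2-/-, kept direction and side of the threshold under every alternative run. Over all probe sets, the share of higher calls against wild type was 35.4% in Ezh2-/-, 41.4% in Eed-/- and 30.7% for Jarid2-/-. It became 49.5%, 48.6% and 48.4% after quantile normalization, and 51.5%, 40.9% and 48.0% with equal array medians. Against Eed-/- it was 33.8% in Ezh2-/- and 33.5% for Jarid2-/-, and it became 45.4% and 45.8% after quantile normalization, and 54.8% and 52.0% with equal array medians. With a filter on dim probe sets, which tests fewer of them, the 4213 calls in Eed-/- became 2445 and the 4485 for Jarid2-/- became 2826. With only the 2 groups compared in the fit they became 2469 and 2544, the 3798 calls between Ezh2-/- and Eed-/- became 5728, and the 3 probe sets of the growth genes called between Jarid2-/- and Ezh2-/- became 5; the cause was not tested.

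With 1 array left out, calls over all probe sets ran from 2655 to 5659 in Ezh2-/-, from 1801 to 3637 in Eed-/- and from 2728 to 3830 for Jarid2-/- against wild type. Between mutants they ran from 1373 to 2756 (Ezh2-/- and Eed-/-), from 1360 to 2443 (Jarid2-/- and Eed-/-) and from 1124 to 3286 (Jarid2-/- and Ezh2-/-). The main count in Ezh2-/- against wild type was 6012 and became 2838 without Ezh2-/- replicate 1 and 2655 without replicate 2. In Eed-/- it became 2158 without Eed-/- replicate 1, 1801 without replicate 2 and 2585 without wild type replicate 2. For Jarid2-/- it became 2728 without Jarid2-/- replicate 2. Between Ezh2-/- and Eed-/- it became 1590 and 1373 without Ezh2-/- replicate 1 and 2, and 1632 without Eed-/- replicate 2. Between Jarid2-/- and Eed-/- the 3368 calls became 1360 without Eed-/- replicate 2 and 2216 without Jarid2-/- replicate 2. Between Jarid2-/- and Ezh2-/- the 3404 calls became 1218 and 1124 without Ezh2-/- replicate 1 and 2, and 1543 without Jarid2-/- replicate 2. The counts over the 13 probe sets of the growth genes ran from 4 to 6 in Ezh2-/-, from 6 to 11 in Eed-/- and stayed at 7 for Jarid2-/- against wild type. Between mutants they ran from 7 to 11, from 7 to 9 and from 2 to 4 in the order above. Where a group is left with 1 array, it is assumed to vary like the others.

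The sign turned only at values that passed in neither setting. In Ezh2-/- the dim Igf2 probe set became 0.11 and Cdkn1c 0.022 after quantile normalization, and 0.076 and 0.05 with equal array medians. For Jarid2-/- Phlda2 became 0.034 and 0.066 under these scalings. With 1 array left out, values in Ezh2-/- ran from -0.061 to 0.05 for the dim Igf2 probe set, from -0.077 to 0.001 for Cdkn1c, from -0.103 to 0.261 for Phlda2 and from -0.407 to 0.042 for the dimmer Igf2r probe set. For Jarid2-/- they ran from -0.029 to 0.419 and from -0.443 to 0.174 for the dimmer and brighter Igf2r probe sets and from -0.188 to 0.176 for Phlda2. Between Jarid2-/- and Eed-/- the dim Igf2 probe set ran from -0.399 to 0.045. Between Jarid2-/- and Ezh2-/- the brighter Igf2r probe set ran from -0.086 to 0.443, and the dimmer Grb10 probe sets from -0.048 to 0.099 and from -0.049 to 0.269.

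The labels do not say that a replicate number marks a shared culture. With the replicate number as a block, 11 of the 13 probe sets were called in Eed-/- in place of 10, with the brighter Igf2r probe set added, 4 in place of 3 between Jarid2-/- and Ezh2-/-, with Plagl1 added, and the counts of the other comparisons (6, 7, 10 and 9) did not move.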
